A study of Mus musculus with 6 samples.

Results

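Glycolysis was followed through 40 genes, from the glucose transporters to the entry of pyruvate into mitochondria, chosen by symbol among the protein-coding genes. Aldoa names a pair of genes, so the 40 symbols gave 41 genes of the 55487 that were counted, 21936 of them protein-coding. The RNA was that of αTC1, a line of pancreatic α cells, the cells that make glucagon, established from a mouse glucagonoma and grown in low-glucose medium. Cells received either the SMNDC1 inhibitor, named G786-1089 by the labels and taken here to be compound 1 of the study, or its solvent DMSO, with 3 libraries each. The column names call all 6 wild type (WT), and the labels name no other allele or agent. SMNDC1 is a Tudor domain protein of the spliceosome, and the sequencing asked what its inhibition does in cells. The labels give neither dose nor duration nor batch for these libraries. For its cell culture experiments in general the study states that each replicate divided 1 batch of cells between the treatments and was handled together, but the column letters of these libraries are not tied to replicate numbers. The p-values measure the spread between these libraries, which may be technical. In bulk RNA a smaller share of cells that express a gene and less of its RNA per cell cannot be told apart.

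In glycolysis, glucose enters through transporters, is phosphorylated by hexokinase and committed by phosphofructokinase, and is then split and oxidised to pyruvate with a net yield of ATP. Pyruvate becomes lactate through lactate dehydrogenase and leaves the cell with monocarboxylate transporters, or it enters mitochondria through the pyruvate carrier and is turned into acetyl-CoA by pyruvate dehydrogenase, which kinases switch off and phosphatases switch on. Many of these genes are known targets of the hypoxia-inducible factors, and in islet cells the pathway links blood glucose to hormone release.

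The libraries held 59070705 to 94747943 counts, with each inhibitor library deeper than each DMSO library. The α cell label was checked against 10 markers, of which 7 reached an FPKM (fragments scaled per kilobase and for depth, as deposited) of at least 1 in every library. Gcg, which encodes glucagon, had a mean FPKM of 2631 with the inhibitor and 17893 with DMSO. Some defining markers of β, δ, PP, acinar and endothelial cells (Ins1, Pdx1, Sst, Ppy, Cpa1 and Cdh5) were at 0 in all 6 libraries. Other markers of β and endothelial cells were not all at 0. The β marker Nkx6-1 lay between 1.37 and 4.28 FPKM, and Iapp and Ins2 reached at most 1.88 and 0.983. The endothelial Pecam1 was above 0 in some inhibitor libraries but under 1 FPKM in every library. The macrophage-associated Cd68 lay between 4.23 and 13.8 FPKM, whereas Ptprc, which all leukocytes carry, reached at most 0.0740. Summed over the immune markers, FPKM ran from 5.85 to 13.9 with the inhibitor and from 4.23 to 6.25 with DMSO, and their part in the results was not tested.

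Many glycolytic genes were expressed more highly with compound 1 than with DMSO. Of the 41 genes, 36 had enough counts to test, and with edgeR's quasi-likelihood test at an adjusted p under 0.05, 15 rose, 2 fell and 19 did not pass. Among all 15082 tested genes the same test called 6.98% higher and 7.8% lower. The 15 that rose belong to the glucose transporters (Slc2a1, Slc2a3), the upper pathway (Gpi1, Pfkl, Pfkp, Pfkfb3, both Aldoa genes, Tpi1), the lower pathway (Eno1, Eno2, Pkm), lactate export (Slc16a3) and the control of pyruvate dehydrogenase (Pdk1, Pdp1). The 2 that fell were Bpgm and Pdk3. The remaining 5 (Hk2, Pklr, Ldha, Ldhb and Pdk4) had too few counts to be tested.

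Over the 36 tested genes, log2 fold changes had a median of 0.52, against 0.041 over all tested genes, and 27 of the 36 lay above 0, against 51.8% of all tested genes. The study's filter asks for an adjusted p no higher than 0.1 and a change of at least 1 on the log2 scale, either way. The study used it with DESeq2 results to select among genes with splicing events. Applied to the edgeR results here, 11 were higher and 1 lower, where 6.25% and 4.16% of all tested genes passed. In CPM, that is counts divided by the scaled depth of the library, 19 of the 36 lay higher in every inhibitor library than in any DMSO library and 3 lay lower, against 18.2% and 18.5% of all tested genes. Highly expressed genes were called more often in general. Among the 4453 tested genes whose average log2 CPM was 5 or more, 13.6% rose and 20.8% fell, and of the 25 glycolytic genes in that range 12 rose and 2 fell. Together the 41 genes took 3.07%, 3.25% and 3.14% of all counts in the inhibitor libraries and 1.94%, 1.93% and 1.94% in the DMSO libraries. The groups of 3 did not overlap, and an exact permutation test of 3 against 3 cannot go below p = 0.1. These are shares of the raw total, which amounts to scaling by library size only. Scaling by library size only, which moves the median of all genes from 0.041 to 0.25, called 19 of the 36 higher and 1 lower, and then 67.2% of the calls over all genes were higher in place of 47.2%.

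**Figure D1:**
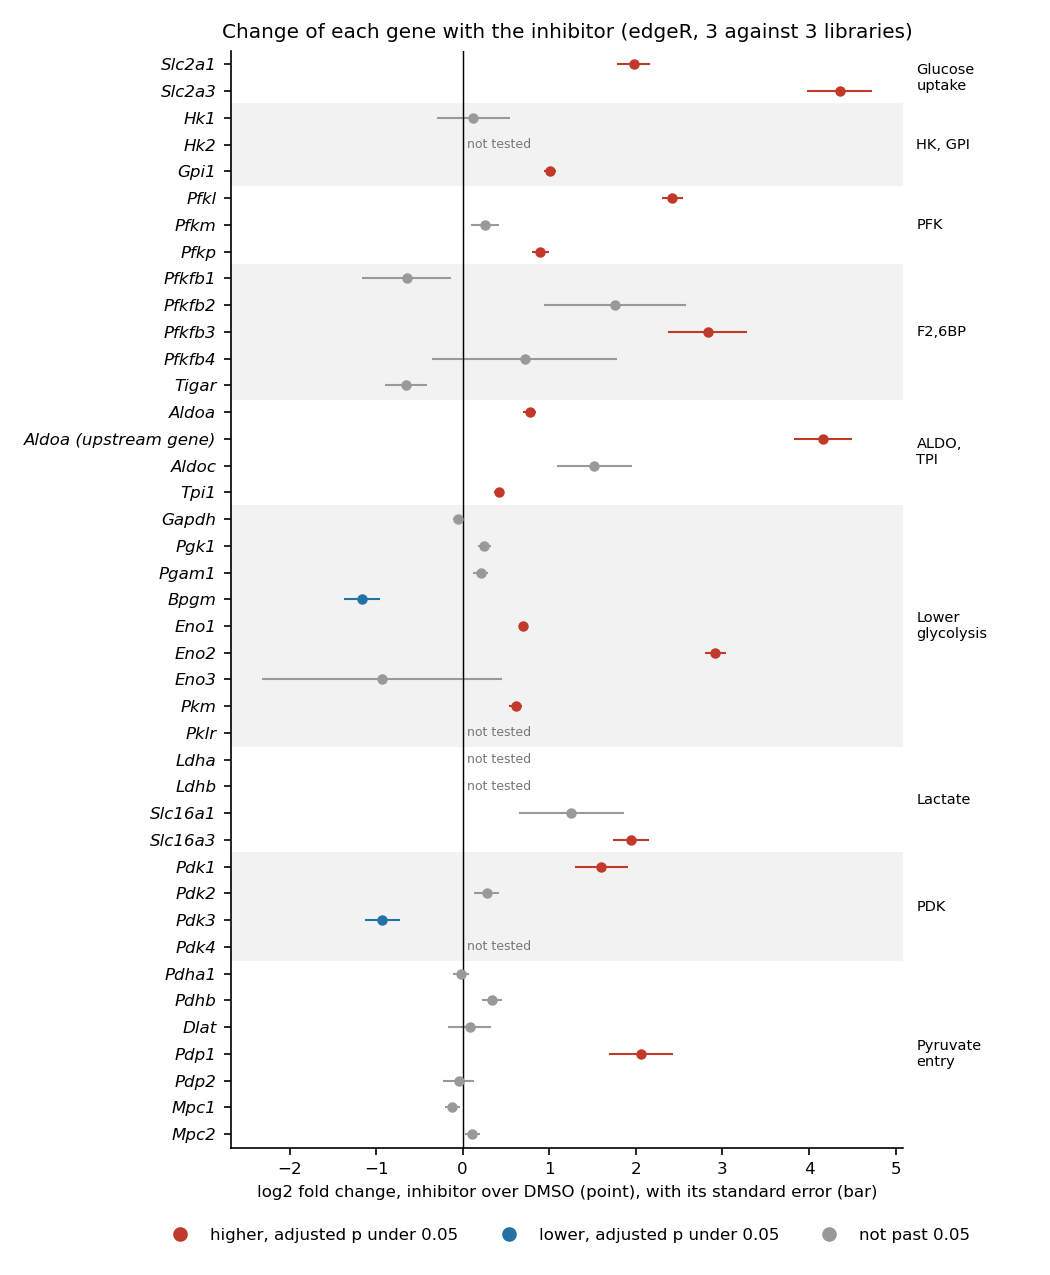
The log2 fold change (inhibitor over DMSO, horizontal axis) is drawn for each of the 41 genes in pathway order from top to bottom, with bars for the standard error and colour for the call at an adjusted p under 0.05 (edgeR, 3 libraries each). The 15 red points run from Tpi1 at 0.42 to Slc2a3 at 4.35, the 2 blue points are Bpgm at -1.16 and Pdk3 at -0.93, and the 5 untested genes carry no point.

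The promoters of 7 genes are shown, chosen for a large fold change, a high level or, in 1 case, the lack of counts. No gene that fell is among them. Each is 300 bases, from 250 before to 50 after a start site in the RefSeq annotation of GRCm38.p6, written 5′ to 3′ on the gene's strand. Capitals mark ACGTG or GCGTG on either strand (CACGT or CACGC when read on the other), the letters at the core of sites known to be bound by hypoxia-inducible factors; the palindrome CACGTG holds ACGTG on both strands and counts as 2 matches. Shown are Eno2 (chr6:124769624-124769923, minus strand), Pfkfb3 (chr2:11553880-11554179, minus), Pfkl (chr10:78009758-78010057, minus) and Slc2a1 (chr4:119108495-119108794, plus), which had large fold changes, Aldoa (chr7:126800398-126800697, minus) and Gapdh (chr6:125165724-125166023, minus), which had the highest FPKM, and Ldha (chr7:46845554-46845853, plus), which had no counts and was picked after its values were seen.
Eno2: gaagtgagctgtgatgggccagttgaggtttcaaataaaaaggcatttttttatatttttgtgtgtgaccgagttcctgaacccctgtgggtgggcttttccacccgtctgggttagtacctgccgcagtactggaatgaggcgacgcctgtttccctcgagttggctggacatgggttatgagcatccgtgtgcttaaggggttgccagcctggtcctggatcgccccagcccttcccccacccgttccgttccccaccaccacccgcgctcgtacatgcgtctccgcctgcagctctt
Pfkfb3: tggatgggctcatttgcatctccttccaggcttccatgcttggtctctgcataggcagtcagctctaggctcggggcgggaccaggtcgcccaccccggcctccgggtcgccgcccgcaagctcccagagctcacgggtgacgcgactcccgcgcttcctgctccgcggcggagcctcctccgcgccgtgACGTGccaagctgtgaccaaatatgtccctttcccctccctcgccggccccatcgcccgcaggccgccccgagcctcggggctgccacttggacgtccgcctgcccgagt
Pfkl: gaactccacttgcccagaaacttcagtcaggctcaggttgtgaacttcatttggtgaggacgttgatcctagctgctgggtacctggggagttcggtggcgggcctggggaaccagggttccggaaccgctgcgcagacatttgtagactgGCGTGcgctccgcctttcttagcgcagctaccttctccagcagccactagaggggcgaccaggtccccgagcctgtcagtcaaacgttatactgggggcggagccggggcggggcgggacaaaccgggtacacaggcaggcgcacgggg
Slc2a1: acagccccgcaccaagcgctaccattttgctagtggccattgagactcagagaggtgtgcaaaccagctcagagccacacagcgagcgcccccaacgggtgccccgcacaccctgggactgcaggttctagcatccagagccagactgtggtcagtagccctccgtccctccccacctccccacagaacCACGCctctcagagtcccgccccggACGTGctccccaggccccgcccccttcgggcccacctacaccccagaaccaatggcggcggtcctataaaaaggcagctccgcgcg
Aldoa: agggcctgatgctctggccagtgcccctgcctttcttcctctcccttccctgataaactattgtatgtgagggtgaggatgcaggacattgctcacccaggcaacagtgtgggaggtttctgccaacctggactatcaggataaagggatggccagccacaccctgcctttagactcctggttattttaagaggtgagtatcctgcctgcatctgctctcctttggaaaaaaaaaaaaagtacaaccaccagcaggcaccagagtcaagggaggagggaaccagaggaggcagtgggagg
Gapdh: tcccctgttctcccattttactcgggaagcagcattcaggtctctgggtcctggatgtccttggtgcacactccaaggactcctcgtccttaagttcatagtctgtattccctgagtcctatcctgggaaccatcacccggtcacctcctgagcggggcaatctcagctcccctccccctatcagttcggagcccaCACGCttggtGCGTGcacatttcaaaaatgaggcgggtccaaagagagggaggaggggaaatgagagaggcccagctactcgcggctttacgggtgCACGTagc
Ldha: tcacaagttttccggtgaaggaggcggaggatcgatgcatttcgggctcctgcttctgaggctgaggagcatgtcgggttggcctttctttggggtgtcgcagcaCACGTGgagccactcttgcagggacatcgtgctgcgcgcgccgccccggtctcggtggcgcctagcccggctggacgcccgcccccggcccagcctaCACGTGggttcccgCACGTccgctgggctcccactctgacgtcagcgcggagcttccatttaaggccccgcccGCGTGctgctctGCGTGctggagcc
The window of Ldha held 7 matches, that of Gapdh 3, that of Slc2a1 2, those of Pfkl and Pfkfb3 1 each, and those of Eno2 and Aldoa 0. These are the windows closest to the annotated start of each gene, though not always near it. Their start sites lie 4329 bases from it for Ldha, 694 for Gapdh and 0 to 304 for the others. A second window of Pfkfb3 held 4 matches, a second one of Ldha 2, and 2 further windows of Aldoa 1 each. A window was given for 38 of the 40 symbols, not for Slc2a3 and Pdp1. Over all windows of a gene, 31 of the 38 genes (81.6%) held a match. The share was 46.7% of all genes with a window and 68.3% of those tested here. A gene with more windows has more chances to hold a match. Counted by window, 41 of 59 (69.5%) held one, against 43.8% of all windows and 62.4% of those of tested genes. By call, the share was 9 of 12 symbols that rose (75.0%) and 17 of 19 that were tested without a call (89.5%). Counted by window, the shares were 68.4% and 71.0%. By either count the share was not higher among the genes that rose, and the difference was not tested. A match is a run of letters and not a bound site.

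Both glucose transporter genes rose. Slc2a1 (GLUT1, chromosome 4, 119108711 to 119137983 of GRCm38) had FPKM values of 28.6, 30.9 and 27.5 with the inhibitor and 9.39, 6.19 and 6.59 with DMSO. The groups did not overlap, and expression was 3.93-fold higher (log2 fold change 1.97 ± 0.19 SE, adjusted p = 0.00143). Slc2a3 (GLUT3, a high-affinity transporter best known from neurons; chromosome 6, 122727809 to 122801640) went from FPKM values of 0.374, 0.200 and 0.325 with DMSO to 5.38, 5.09 and 7.85 with the inhibitor. This was a 20.5-fold difference (log2 fold change 4.35 ± 0.38 SE, adjusted p = 0.000998), on 1744 to 2954 counts against 56 to 98. Its exons, 3959 bases in all, share stretches of 100 to 195 near-identical bases with 74 other genes. The 3 pseudogenes among those share 135 to 165 bases and are not full copies. Their summed CPM was 319% of that of Slc2a3 with DMSO and 11.6% with the inhibitor. Adding them gave a log2 ratio of 2.45, which is not a corrected fold change of Slc2a3.

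Of the next enzymes, phosphoglucose isomerase rose and hexokinase did not pass. Hk1, the hexokinase of the set with counts in every library, had FPKM values between 1.38 and 2.46 with the inhibitor and between 1.06 and 2.57 with DMSO, which overlap. Hk2, the isozyme typical of muscle and many tumours, had 60 counts in 1 inhibitor library and 0 in the other 5. Gpi1, which makes fructose 6-phosphate (chromosome 7, 34201330 to 34230336), had FPKM values of 535, 611 and 591 with the inhibitor and 273, 297 and 295 with DMSO. The groups were far apart, and expression was 2.01-fold higher (standard error 0.07 on the log2 scale, adjusted p = 0.000369). Exons of Gm26762 on the other strand cover 12.3% of its exon bases, and the counts do not separate strands.

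Of the 3 phosphofructokinases, which catalyse the committed step, the liver-type and platelet-type genes rose. Pfkl (chromosome 10, 77986947 to 78010083) had FPKM values of 129, 149 and 128 with the inhibitor and 27.2, 21.8 and 27.0 with DMSO. Its 5.36-fold increase (log2 fold change 2.42 ± 0.12 SE, adjusted p = 0.000128) was the largest of the 3. Pfkp (chromosome 13, 6579768 to 6648777) had FPKM values of 156, 140.0 and 149.5 with the inhibitor and 74.7, 75.4 and 90.1 with DMSO. The groups did not overlap, and the log2 fold change was 0.90 ± 0.10 SE (adjusted p = 0.002), with 17.4% of its exon bases covered by Pitrm1 on the other strand. Pfkm, the muscle type, ran from 33.2 to 47.8 FPKM with the inhibitor and from 29.3 to 36.6 with DMSO, and its log2 fold change of 0.25 ± 0.16 SE did not pass (adjusted p = 0.365).

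Phosphofructokinase is activated by fructose 2,6-bisphosphate, which the PFKFB enzymes make and break and TIGAR breaks. Pfkfb3, the family member with the strongest kinase activity, had FPKM values of 0.827, 1.32 and 1.39 with the inhibitor and 0.208, 0.143 and 0.147 with DMSO (chromosome 2, 11471433 to 11554077). Although its level stayed low, the groups did not overlap and expression was 7.10-fold higher (log2 fold change 2.83 ± 0.45 SE, adjusted p = 0.00906). With the column letter as a replicate block its adjusted p was 0.0566. The other 3 family members did not pass. Pfkfb1 had mean FPKM values of 2.53 ± 1.26 and 3.96 ± 1.48 (SD, n = 3, inhibitor and DMSO), Pfkfb2 of 0.635 ± 0.435 and 0.188 ± 0.130, and Pfkfb4 of 1.27 ± 1.21 and 0.778 ± 0.644. All 3 groups of values overlapped between treatments. Tigar lay lower in every inhibitor library, at 7.18 to 11.3 FPKM against 13.1 to 18.9, but its log2 fold change of -0.66 ± 0.24 SE did not pass with edgeR (adjusted p = 0.127). DESeq2 gave an adjusted p of 0.0389 for it.

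**Figure D2:**
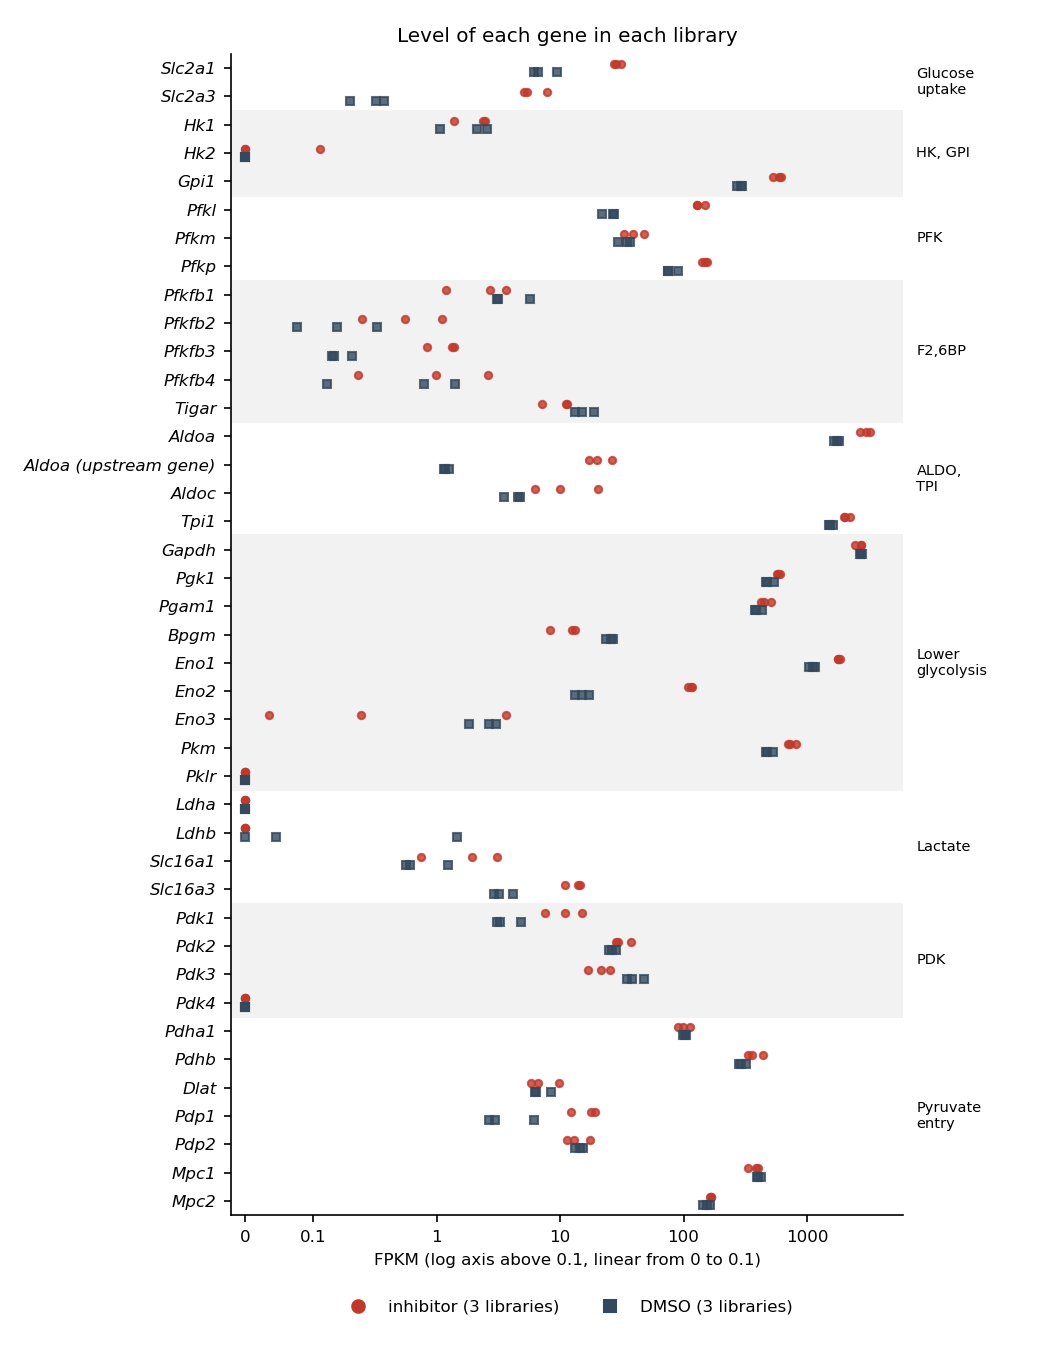
Each point is 1 library's FPKM for a gene (horizontal axis, logarithmic above 0.1 and linear from 0 to 0.1), with inhibitor libraries as circles and DMSO libraries as squares, and genes in pathway order. The groups are furthest apart for Slc2a3, the upstream Aldoa gene, Eno2 and Pfkl, while Gapdh, the pyruvate carrier and Pdha1 overlap and Ldha, Pklr and Pdk4 sit at 0.

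Aldolase splits fructose 1,6-bisphosphate, and triose phosphate isomerase interconverts its products. The main Aldoa gene (ENSMUSG00000030695, chromosome 7, 126795234 to 126800751, minus strand) had the highest mean FPKM of all 41 with the inhibitor, at 2672, 3249 and 2982 FPKM, and had 1763, 1647 and 1809.7 with DMSO. These values did not overlap, and the log2 fold change was 0.77 ± 0.07 SE (adjusted p = 0.00129). The second gene named Aldoa (ENSMUSG00000114515, 126800790 to 126809108) starts upstream on the same strand, has 4 annotated exons and shares no exon base with the first, with 38 bases between them. It had FPKM values of 26.5, 19.98 and 17.2 with the inhibitor and 1.26, 1.16 and 1.14 with DMSO, a 17.9-fold difference (log2 fold change 4.16 ± 0.33 SE, adjusted p = 0.00075). Its level was thus far below that of the main gene in every library while its fold change was far above. The start site of the Aldoa window shown above lies 304 bases from the annotated start of the main gene.

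Aldoc, the brain aldolase, was higher in every inhibitor library, with FPKM values of 6.22, 20.3 and 10.1 against 4.57, 3.52 and 4.70. The inhibitor libraries differed among themselves, and the log2 fold change of 1.52 ± 0.43 SE narrowly failed (adjusted p = 0.0629). Without inhibitor library A, the lowest of the 3, it was 1.83 with an adjusted p of 0.0319. Tpi1 (chromosome 6, 124810586 to 124814296) had the smallest change that was called. Its FPKM values were 1988, 2216 and 2040.2 with the inhibitor and 1526, 1638 and 1511 with DMSO, a 1.34-fold increase without overlap (log2 fold change 0.42 ± 0.06 SE, adjusted p = 0.00446).

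Gapdh, the usual reference gene, did not pass, and its libraries overlapped at 2430.4 to 2733 FPKM with the inhibitor and 2677 to 2792 with DMSO. The log2 fold change was -0.05 ± 0.05 SE (adjusted p = 0.567), and 0.15 when libraries were scaled by their size only. The annotation holds 144 near-identical pseudogene copies of Gapdh, 139 of them with counts, which together reached 86.1% of its own level in CPM with the inhibitor and 86.9% with DMSO. With those copies added the log2 ratio was -0.06, close to that of the gene alone. Pgk1, which makes the first ATP of the pathway, lay higher in every inhibitor library (568 to 609 FPKM against 466 to 541) with a log2 fold change of 0.25 ± 0.07 SE (adjusted p = 0.0685). It passed without DMSO library C (0.31, adjusted p = 0.0467). Pgam1 overlapped between the groups, at 423 to 511 and 381 to 431 FPKM.

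Bpgm fell. The gene encodes bisphosphoglycerate mutase, which draws on the same intermediate as Pgk1 and is best known from red cells (chromosome 6, 34476207 to 34505613). It had FPKM values of 8.35, 13.1 and 12.4 with the inhibitor and 26.8, 23.3 and 26.0 with DMSO. All inhibitor libraries were below all DMSO libraries, and the log2 fold change was -1.16 ± 0.21 SE (adjusted p = 0.0131). It was lost when some libraries were left out, with adjusted p-values of 0.0533 without DMSO library A and 0.0517 without DMSO library C.

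Enolase, the next to last enzyme, rose at both of its more abundant genes. Eno1 (chromosome 4, 150236721 to 150248879) had FPKM values of 1782, 1840.0 and 1772 with the inhibitor and 1156, 1125 and 1044 with DMSO. The log2 fold change was 0.70 ± 0.05 SE (adjusted p = 0.000412), and 0.71 when its 4 near-identical copies, Eno1b among them, were added. Eno2, the neuronal and neuroendocrine enolase (chromosome 6, 124760053 to 124769673), had FPKM values of 109, 114 and 118 against 17.1, 13.1 and 15.1. Its libraries agreed closely within each group, and the 7.55-fold increase (log2 fold change 2.92 ± 0.12 SE) had the lowest adjusted p of the set, 0.000102. Its promoter window above holds neither ACGTG nor GCGTG. Eno3, the muscle enolase, varied from 0.0353 to 3.63 FPKM with the inhibitor and from 1.84 to 3.02 with DMSO, and did not pass.

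Pyruvate kinase was represented by Pkm (chromosome 9, 59656368 to 59679375). It had FPKM values of 729, 812 and 696 with the inhibitor and 473, 465 and 527 with DMSO. The groups did not overlap, and the log2 fold change was 0.61 ± 0.08 SE (adjusted p = 0.00343), with 12.9% of its exon bases shared with Gm49759. Pklr, the liver and red cell type, had 0 counts in all 6 libraries.

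Lactate dehydrogenase was hardly detected in these libraries. Ldha (ENSMUSG00000063229, chromosome 7, 46841475 to 46855627), whose enzyme turns pyruvate into lactate in most dividing cells, had 0 counts in each of the 6. A count of 0 allows up to 3 counts, or 0.0299 to 0.0552 CPM depending on the library, a limit that covers counting error only. Its 8 near-identical copies in the annotation were also at 0, whereas copies of Gapdh, Eno1, Pgk1 and Pgam1 carried counts. Ldhb had 0 counts in all 3 inhibitor libraries and 4, 0 and 112 counts in the DMSO libraries, so 1 library held nearly all of them. Neither gene could be tested.

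Of the lactate transporters, Slc16a3 rose. Slc16a3 (MCT4, which exports lactate; chromosome 11, 120948480 to 120960868) had FPKM values of 13.9, 14.5 and 10.9 with the inhibitor and 4.13, 2.92 and 3.18 with DMSO. This was a 3.85-fold difference without overlap (log2 fold change 1.94 ± 0.21 SE, adjusted p = 0.002). Slc16a1 (MCT1) had FPKM values of 0.748 to 3.06 with the inhibitor and 0.563 to 1.23 with DMSO, which overlap, and a log2 fold change of 1.26 ± 0.61 SE (adjusted p = 0.238).

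Of the 3 pyruvate dehydrogenase kinases that could be tested, 1 rose, 1 fell and 1 did not pass, and both calls were lost in some alternatives. Pdk1 (chromosome 2, 71873224 to 71903858), which restrains the entry of pyruvate, had FPKM values of 7.51, 15.05 and 11.1 with the inhibitor and 3.24, 3.07 and 4.79 with DMSO. The groups did not overlap, although the inhibitor libraries ranged widely, and expression was 3.03-fold higher (log2 fold change 1.60 ± 0.31 SE, adjusted p = 0.0172). Adjusted p-values were 0.0561 without inhibitor library C, 0.0694 without DMSO library A and 0.0671 without DMSO library B. Pdk3 (X chromosome, 93764607 to 93832201) had FPKM values of 21.4, 16.9 and 25.4 with the inhibitor and 38.6, 48.1 and 35.1 with DMSO. It was lower in every inhibitor library, with a log2 fold change of -0.93 ± 0.20 SE (adjusted p = 0.0263). This call was lost when any library but inhibitor C was left out, with adjusted p-values of 0.0754 without inhibitor A, 0.0608 without inhibitor B, 0.072 without DMSO A, 0.082 without DMSO B and 0.0518 without DMSO C, with scaling by library size only (0.0639) and with the replicate block (0.0901). Pdk2 lay higher in every inhibitor library, though narrowly, at 28.5 to 37.4 FPKM against 24.8 to 28.2 with DMSO, and did not pass (adjusted p = 0.29). Pdk4 had 0 counts in every library.

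Of the genes that carry pyruvate into the citrate cycle, 1 of 7 rose and none fell. Pdp1, a phosphatase that reactivates pyruvate dehydrogenase (chromosome 4, 11958184 to 11966452), had FPKM values of 12.3, 19.0 and 17.9 with the inhibitor and 2.99, 6.20 and 2.68 with DMSO. The groups were separate, and expression was 4.16-fold higher (log2 fold change 2.06 ± 0.37 SE, adjusted p = 0.0137). Leaving out inhibitor library C gave an adjusted p of 0.0522, and leaving out DMSO library A 0.0558. Pdp2, the other phosphatase, overlapped at 11.3 to 17.3 and 13.2 to 15.3 FPKM. The subunits Pdha1 and Dlat and the carrier genes Mpc1 and Mpc2 had log2 fold changes of -0.02, 0.08, -0.12 and 0.11, with overlapping groups, and Pdhb had 0.34 ± 0.11 SE (adjusted p = 0.1).

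The make-up of several isozyme families differed between the treatments. Shares were computed from FPKM within each library and are given as mean ± SD (n = 3) without a test. Pfkl made up 18.3% ± 2.18 of phosphofructokinase RNA with DMSO and 41.8% ± 2.15 with the inhibitor. Pfkp was at 57.6% ± 0.923 with DMSO and 45.9% ± 3.89 with the inhibitor, and Pfkm at 24.2% ± 2.03 and 12.3% ± 1.87. Eno2 made up 1.34% ± 0.167 of enolase RNA with DMSO and 5.94% ± 0.242 with the inhibitor. Eno1 thus stayed the dominant enolase in all libraries.

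Slc2a3 provided 3.88% ± 0.790 of the RNA of the 2 glucose transporters with DMSO and 17.4% ± 4.27 with the inhibitor. Among the kinases, Pdk3 held the largest share with DMSO (57.2% ± 4.35, against 32.9% ± 5.28 with the inhibitor), and Pdk2 with the inhibitor (49.5% ± 6.08, against 37.5% ± 3.30). Pdk1 was at 5.33% ± 1.82 and 17.6% ± 6.84. The summed FPKM of the kinases was 70.7 with DMSO and 64.3 with the inhibitor, a small difference beside those of the shares. Pdp1 made up 21.3% ± 9.29 of phosphatase RNA with DMSO and 54.2% ± 10.9 with the inhibitor. None of these shares overlapped between the groups, whereas those of Aldoc and Slc16a3 did.

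**Figure D3:**
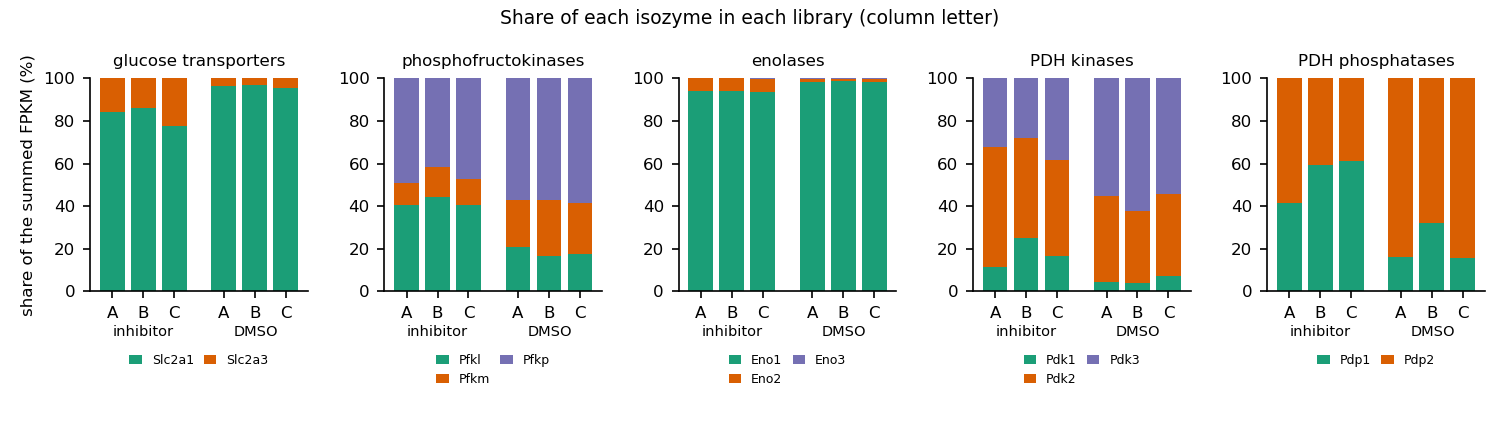
Stacked bars give the share of each isozyme in the summed FPKM of its family (vertical axis, percent) in each of the 6 libraries, named by column letter, for glucose transporters, phosphofructokinases, enolases and the kinases and phosphatases of pyruvate dehydrogenase (PDH). Pfkl takes about the same share in the 3 inhibitor libraries (40.5% to 44.2%) and a lower one in the 3 DMSO libraries (16.5% to 20.7%).

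Neighbouring pathways had calls in both directions. In 7 further lists with 94 genes, written from general knowledge, 69 could be tested, and 10 rose (14.5%) and 14 fell (20.3%). Over all tested genes 6.98% rose and 7.8% fell, and over those with a log2 CPM of 5 or more 13.6% and 20.8%. The 69 genes were not limited to that range, so the latter shares are not a matched background for them. Glycogen genes gave 4 of 11 higher and 1 lower. Gys1, the glycogen synthase of muscle and most tissues, went from 13.2 ± 1.22 to 56.2 ± 5.81 FPKM (log2 fold change 2.09 ± 0.12 SE, adjusted p = 0.000241), and Gbe1, the branching enzyme, had 2.25 ± 0.24 SE (adjusted p = 0.00203). Pgm1 (141 ± 11.2 to 331 ± 45.1 FPKM) and Gyg (20.2 ± 1.27 to 34.8 ± 8.40) also rose, and Gys2, the liver glycogen synthase, fell by 1.45 on the log2 scale.

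Gluconeogenesis, which runs opposite to glycolysis, had 1 of 10 genes higher and 2 lower. Both fructose bisphosphatases fell, Fbp1 from 25.2 ± 1.99 to 5.93 ± 1.94 FPKM (log2 fold change -2.09 ± 0.27 SE, adjusted p = 0.00419) and Fbp2 from 43.0 ± 4.48 to 13.6 ± 1.69 (-1.65 ± 0.17 SE, adjusted p = 0.00191), and Pck2 rose (0.56). In the pentose phosphate pathway 3 of 8 fell and none rose, namely G6pdx (-1.20), Pgls (-1.05) and Taldo1 (-1.06 ± 0.08 SE, adjusted p = 0.000526). Of 15 citrate cycle genes 4 fell (Sdhb by 0.76, Ogdh by 0.57, Mdh2 by 0.53 and Idh3g by 0.37) and Idh3b rose (0.39). In the malate-aspartate shuttle, which carries the reducing equivalents of glycolysis into mitochondria, Slc25a11, Mdh2 and Mdh1 fell by 0.67, 0.53 and 0.33 and Got1 rose by 0.58, of 7 tested.

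Among further genes of glucose entry and glycolysis, Slc2a5, a fructose transporter, fell by 0.56 on the log2 scale, and Eno1b, the near-identical copy of Eno1, rose by 0.72. Pgam2, the muscle phosphoglycerate mutase, had 48, 25 and 43 counts with the inhibitor and 0, 0 and 1 with DMSO, which passed the test but gives no sound fold change. The 2 chaperones of the lactate transporters, which escort them to the membrane, went in opposite directions. Bsg rose (624 ± 50.6 to 918 ± 54.4 FPKM, log2 fold change 0.56 ± 0.08 SE, adjusted p = 0.00515), and Emb fell (128 ± 8.46 to 72.8 ± 7.40 FPKM, -0.82 ± 0.10 SE, adjusted p = 0.00343).

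**Figure D4:**
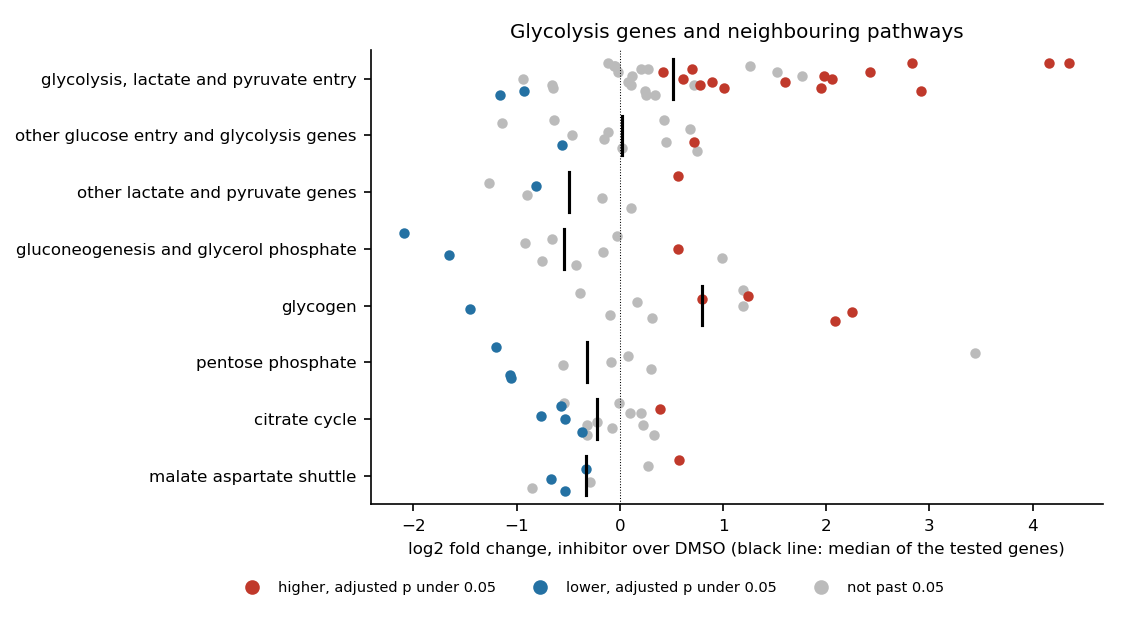
Each point is the log2 fold change (inhibitor over DMSO, horizontal axis) of 1 tested gene, in 1 row for the glycolytic genes and 1 for each neighbouring list, coloured by the call at an adjusted p under 0.05, with a black line at the median. Pgam2 is not drawn because it had at most 1 count in a DMSO library; red points are most frequent in the top row (15 of 36), and blue ones make up all 3 calls of the pentose phosphate row.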

How the data were processed

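RNA sequencing of αTC1 cells was analysed, 3 libraries with the SMNDC1 inhibitor and 3 with DMSO. The authors prepared Smart-seq2 libraries, aligned reads with STAR 2.7.9a to GRCm38, and deposited unnormalized counts of alignments per gene, taken irrespective of strand, which leaves overlapping antisense genes unseparated. The authors also deposited FPKM values of the same genes; their ratio to the counts was the same for every gene within a library, apart from its length. DESeq2 1.34.0 is named in the submitters' processing notes.

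Counts were tested in R 4.3.3 with edgeR 4.0.16 (filterByExpr with a minimum count of 10 and total of 15, TMM, quasi-likelihood test, Benjamini-Hochberg over all tested genes). FPKM was used for levels and shares. The smallest library had 59070705 counts, and for genes at 0 a limit of 3 counts per library is given. All 40 genes could be named, with values in every library for those called, and up to 3 called genes with the smallest p, and any of 5 or fewer, in each other list. The genes and lists were chosen with earlier results of these data known, so no test of a list was made and no list is independent evidence. Alternatives were RLE factors, library size only, DESeq2 1.42.0, 2 other filters, gene length offsets, limma-trend 3.58.1 on log2 FPKM, a replicate block and each library left out. All 41 positions matched GENCODE vM21, and copies of at least 100 bases at 95% identity were found with blastn 2.17.0. Promoters come from RefSeq (GRCm38.p6).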

Additional observations from a re-analysis of the deposited data

How the results depend on the processing

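Of the 17 called genes, 12 stayed past 0.05 in all 16 alternatives and 0 changed sign, and 13 stayed past it with any 1 library left out. The exceptions were Bpgm, Pdk1, Pdk3, Pdp1 and Pfkfb3. Genes that rose numbered 13 to 19 over the alternatives. The 2 that fell became 1 with library size only and 0 to 2 with a library left out, and the 1 past the study's filter became 0 and 0 to 3. The median log2 fold change of 0.52 was 0.72 with library size only, 0.63 with at least 10 counts in every library, 0.31 (pseudocount 1, with or without a minimum of 1 FPKM) or 0.37 (pseudocount 0.1) with limma-trend, and 0.37 to 0.55 with a library left out. The 10 and 14 called genes of the other lists were 6 to 7 and 7 to 13 with a library left out, a check added after seeing the data, as were the sums over copies and the background at a log2 CPM of 5. From counts in place of FPKM, the share of Eno2 differed by 5.02 percentage points (from FPKM the means were 1.34% and 5.94%) and that of Pdk1 by 21.3 (12.3 from FPKM). Only genes that were not called changed sign: with library size only, Gapdh (0.15), Pdha1 (0.18), Pdp2 (0.16) and Mpc1 (0.085); with gene length offsets, Hk1 (-0.12), Gapdh (0.063), Dlat (-0.11) and Mpc1 (0.0024); and with a library left out, Hk1 (-0.17 to 0.38), Pfkfb4 (-0.36 to 1.47), Pdha1 (-0.10 to 0.051), Dlat (-0.17 to 0.23) and Pdp2 (-0.24 to 0.081). Aldoc, Pgk1, Pdhb, Pgam1 and Tigar passed in some alternatives. The causes were not tested.

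The column letters are shared by both treatments but cannot be tied to the numbered replicates of the samples. Columns of the same letter did not deviate together (correlations of 0.0027 to 0.025), and 3 of 3 inhibitor but 2 of 3 DMSO libraries correlated best with their own letter. With the letter as a replicate block, 14 genes rose and 1 fell, with adjusted p-values of 0.0566 for Pfkfb3 and 0.0901 for Pdk3, and over all genes 524 rose and 708 fell in place of 1053 and 1177.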
